A study of Mus musculus with 6 samples.

Results

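The 68 replication-dependent histone genes were examined in mouse embryonic endothelial eEnd2 cells, as every gene of the count table whose symbol begins with Hist1h, Hist2h, Hist3h or Hist4h, out of 23420 symbols. The cells carried human Integrin-β1A with an extracellular green fluorescent protein, either as wildtype (β1-WT-GFP) or with the acetylation-mimetic change of Lys794 to glutamine (β1-K794Q-GFP). They are called WT and K794Q cells in what follows. A short human β-actin promoter drove the transgene in both groups, and the cells were untreated. Transfected cells were sorted by flow cytometry in GFPlow and GFPhigh populations, expanded, and lysed at confluence, with 3 cultures (A, B and C) per group. Which sorted population each culture came from is not given in the labels. Since the cultures of a group derive from the same transfected cells, p-values measure the spread between cultures and not between independent transfections. Total RNA was depleted of ribosomal RNA rather than selected for poly-A tails, so transcripts without a tail were kept.

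Replication-dependent histones supply the protein that packages new DNA. Their genes lie in clusters, mostly lack introns, and are transcribed mainly in S phase. Their mRNAs end in a conserved stem-loop in place of a poly-A tail. SLBP binds this stem-loop and takes part in processing, translation and decay of the mRNA. Replacement histones, by contrast, are made throughout the cell cycle from ordinary polyadenylated mRNAs. The comparison asks whether the acetylation-mimetic integrin, which the study examined for its influence on transcription and proliferation, went along with a different level of these S phase transcripts.

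By position on mouse build mm10 (GENCODE M21 annotation), 54 members formed the Hist1 cluster on chromosome 13, 10 the Hist2 cluster on chromosome 3 and 3 the Hist3 cluster on chromosome 11, while Hist4h4 stood alone on chromosome 6. Of the 68 genes, 63 had 1 exon in every annotated transcript. By type, 6 belonged to the linker histone H1, and 18, 19, 12 and 13 to the core histones H2A, H2B, H3 and H4. The H2B members include Hist3h2bb-ps, which is annotated as a processed pseudogene. The 16-base stem-loop pattern, a 6-base stem on each side of a 4-base loop, was found in the annotated transcripts of 46 of the 68 members, and in those of 68 of all 21901 protein-coding genes (0.31%). The 46 members used 8 distinct stem-loops. The most frequent, shared by 26 members, is that of Hist1h1c below, and 7 members, all of the H4 type, carried that of Hist1h4d. The windows below are shown because they are what sets these RNAs apart from polyadenylated ones, and because the 10 genes recur in the results. They were read from the mm10 genome on the strand of the gene, 5′ to 3′, with the stem in capitals.
Hist1h1c, chr13:23739507-23739532, plus strand: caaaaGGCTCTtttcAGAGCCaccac
Hist1h2bg, chr13:23571838-23571863, plus strand: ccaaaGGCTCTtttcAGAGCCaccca
Hist1h3c, chr13:23745042-23745067, minus strand: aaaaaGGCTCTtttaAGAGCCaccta
Hist1h3e, chr13:23561898-23561923, minus strand: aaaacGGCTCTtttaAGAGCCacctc
Hist1h4d, chr13:23581945-23581970, plus strand: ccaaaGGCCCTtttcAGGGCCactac
Hist1h4i, chr13:22040961-22040986, minus strand: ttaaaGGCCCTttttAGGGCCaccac
Hist2h2ac, chr3:96220413-96220438, minus strand: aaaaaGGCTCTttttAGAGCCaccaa
Hist2h3c1, chr3:96247322-96247347, plus strand: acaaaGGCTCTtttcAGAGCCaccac
Hist3h2a, chr11:58955167-58955192, plus strand: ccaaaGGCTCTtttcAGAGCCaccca
Hist4h4, chr6:136803993-136804018, minus strand: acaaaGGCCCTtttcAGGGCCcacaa
The stems of the H1, H2A, H2B and H3 genes shown read alike, and the H4 genes shown differ from them in the stem letters on both sides. The loop letters vary between members of the same type.

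The start regions were compared over the 62 members that had one in the RefSeq table (GRCm38.p6, the same build; 250 bases before to 50 after the start). CCAAT stood on one strand or the other in 85.5% of these, against 37.4% of all 32851 start regions. By type, it stood in 100% of the H1, H2A, H2B and H3 genes and in 25.0% of the H4 genes. TATAAA was found in 56.5% of members against 13.6% of all start regions. ATTTGCA, part of the octamer, was found in 38.9% of H2A and 37.5% of H2B genes, in 0 of the other types and in 4.02% of all. AAACACA, the H1 box, was found in 83.3% of H1 genes against 7.18% of all. The start region of Hist2h2ac is shown because it spans the whole gap of 239 bases to the start of Hist2h2be, which is transcribed the other way. That pair is described with the cultures. The capitals mark the matches to the first 3 motifs named, in the printed or the reverse complement direction, and these matches do not overlap.
Hist2h2ac, chr3:96220831-96221130, minus strand: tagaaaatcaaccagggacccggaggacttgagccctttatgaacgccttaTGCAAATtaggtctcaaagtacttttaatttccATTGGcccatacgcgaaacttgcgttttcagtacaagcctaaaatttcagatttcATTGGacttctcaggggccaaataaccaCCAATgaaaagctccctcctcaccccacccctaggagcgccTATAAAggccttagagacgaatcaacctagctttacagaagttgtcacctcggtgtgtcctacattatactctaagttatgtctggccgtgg
The start region of Hist1h1c, which encodes a linker histone, is shown for its H1 box (AAACACA) and CCAAT, again in capitals.
Hist1h1c, chr13:23738557-23738856, plus strand: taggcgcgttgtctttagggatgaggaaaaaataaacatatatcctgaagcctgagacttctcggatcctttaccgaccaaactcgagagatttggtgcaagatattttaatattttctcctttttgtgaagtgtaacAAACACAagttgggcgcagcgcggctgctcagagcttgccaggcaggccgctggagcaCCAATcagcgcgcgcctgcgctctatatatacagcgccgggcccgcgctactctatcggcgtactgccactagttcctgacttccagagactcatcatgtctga

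The libraries held between 9589826 and 15287191 counts, the deepest being WT culture C. Of the 10 endothelial markers examined, all passed the filter on low counts. Their sum was 11979 in K794Q culture B, in which the histone genes were lowest, and 6273 to 8459 in the other cultures. The epithelial markers stayed at or under 0.592 normalized counts in sum, and of the haematopoietic ones only Cd68 passed. The summed mesenchymal markers went with the group, at 3.66, 3.75 and 2.58 in K794Q and 184, 195 and 84.3 in WT cultures A, B and C. Prrx1, a mesenchymal transcription factor, alone gave this difference. Without it the other 8 markers summed to 3.56, 3.65 and 2.58 in K794Q cells and to 0.787, 1.20 and 27.7 in WT cells, so that WT culture C, mostly through Pdgfra, stood above the rest, and 3 of the 9 markers were at 0 in every culture. The part of these marker differences in the results that follow was not tested. In such bulk samples, fewer cells in S phase and less histone RNA per cell cannot be told apart.

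Normalized counts are given as CPM (counts scaled to a common library size, with TMM factors), in the order of cultures A, B and C. Summed over the 68 genes they were 1345, 879 and 1861 in K794Q and 1219, 1000 and 1743 in WT cells. The groups overlapped, with means of 1362 ± 491 (SD, n = 3) and 1321 ± 382 (SD, n = 3) and a log2 ratio of 0.04. As a share of each library, the histone genes took 0.0796% to 0.195% of the counts in K794Q and 0.104% to 0.164% in WT cells. The spread between cultures of the same group was thus much wider than the difference between the groups. The sum was highest in culture C and lowest in culture B of both groups.

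**Figure D1:**
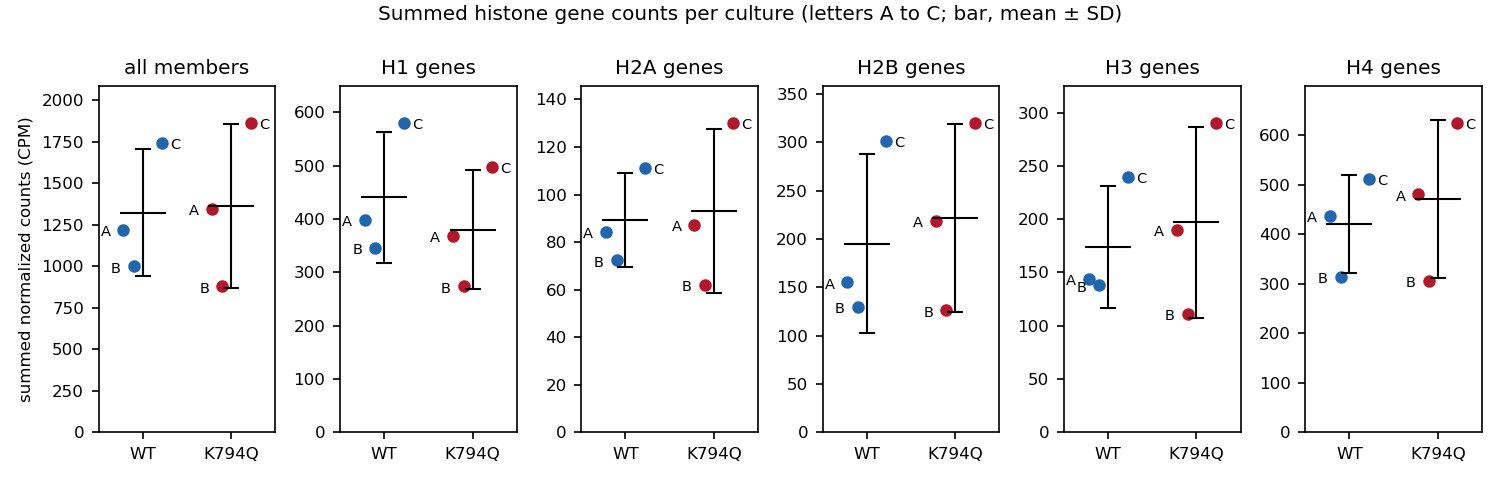
Summed normalized counts (CPM, vertical axes from 0) of all histone genes and of each histone type in the 3 WT (blue) and 3 K794Q (red) cultures. Points are cultures with their letters, and bars are the mean ± SD. In every panel the 2 groups overlap and culture C is highest.

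A gene was called at a fold change of at least 2 with an unadjusted p of at most 0.05 (edgeR's quasi-likelihood test), the thresholds the study used. Of the 68 genes, 54 passed the filter on low counts and were tested. None of the 54 was called, with 0 higher and 0 lower in K794Q cells. Over all 11608 tested genes 5.19% were called, 3.48% higher and 1.71% lower. With p alone, 1 of 54 histone genes was at or under 0.05 against 10.2% of all genes, and DESeq2 likewise called 0 past both thresholds and 1 on p alone. After Benjamini-Hochberg adjustment of the edgeR p-values, 0 of 54 and 0.181% of all genes were at or under 0.05. The log2 fold changes ran from -0.59 (Hist2h3c1) to 0.80 (Hist1h4a), with a median of 0.20, beside -0.02 for all tested genes. They were above 0 in 35 of the 54 genes, against 48.4% of all genes.

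These intervals were wide. The 95% interval lay within 2-fold in both directions for 8 of 54 histone genes, against 48% of all genes. For 39 of the 54 it reached a doubling or more, and for 28 a halving or more. The median standard error was 0.54 log2 units, against 0.30 over all genes. The absence of calls therefore does not show equal levels, and for most members a doubling was within the error. Single cultures also set the centre of the distribution. Without K794Q culture C the median was -0.28 with 18 of 54 genes above 0, and without WT culture C it was 0.65 with 45 of 55 above 0. In that last setting 2 genes passed both thresholds, Hist1h3c higher and Hist2h3c1 lower in K794Q cells.

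**Figure D2:**
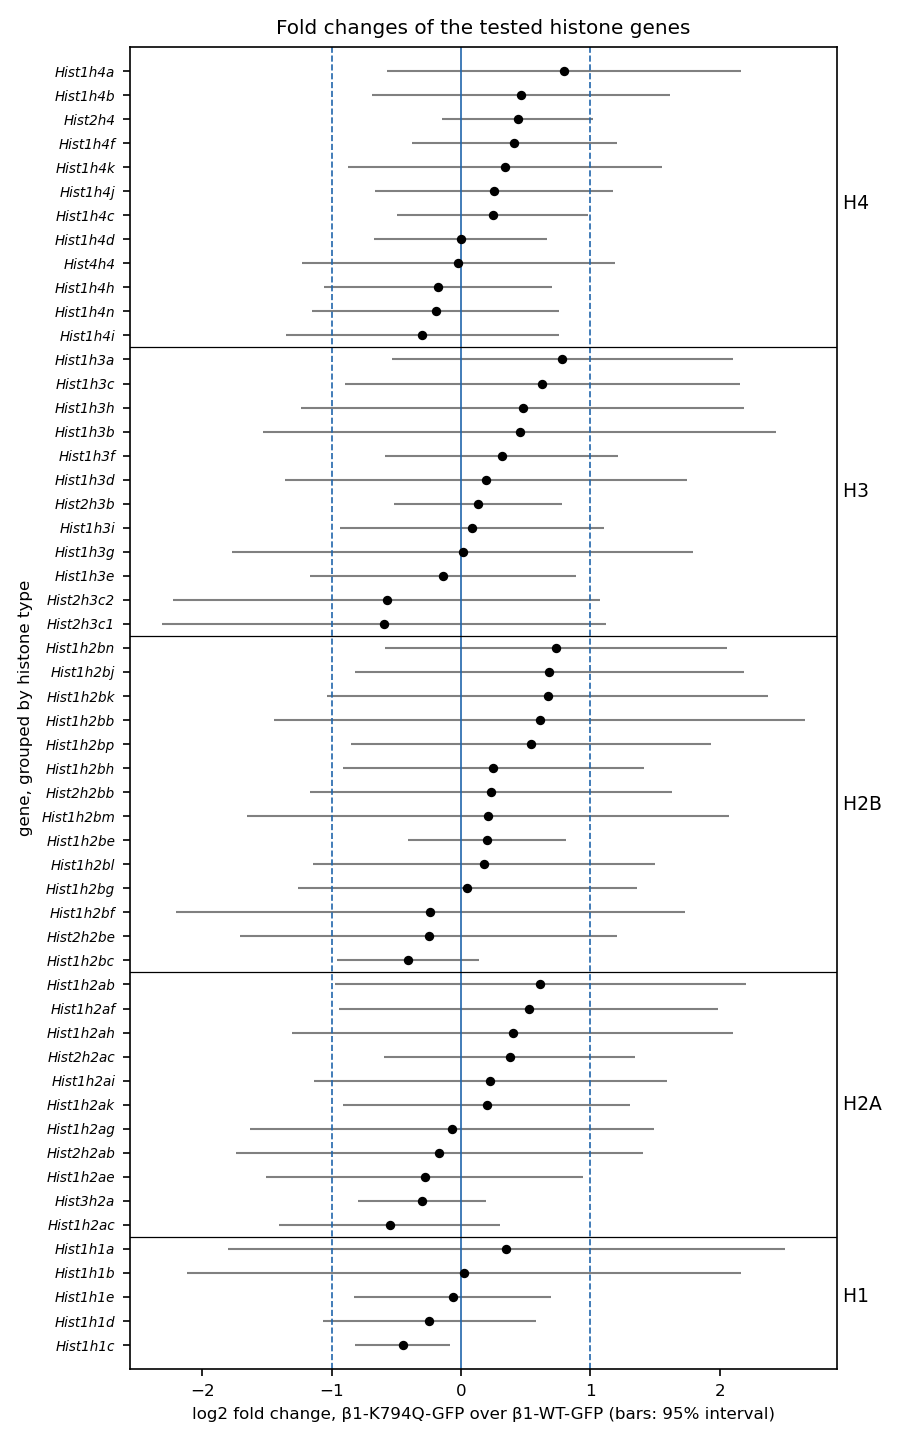
Log2 fold change of each tested histone gene, K794Q over WT (horizontal axis), with its 95% interval, grouped by histone type. The solid line marks no difference and the dashed lines a 2-fold difference. Of 54 intervals, 8 stay between the dashed lines, and that of Hist1h1c is the one that excludes 0.

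Among the genes for linker histone H1, which binds the DNA between nucleosomes, Hist1h1c stood apart. Its normalized counts were 132, 132 and 130 in K794Q and 196, 172 and 169 in WT cells. The groups did not overlap, and it was the 1 tested histone gene of which this was so. Over all genes, 8.12% did not overlap with K794Q lower and 8.45% with it higher, so 1 of 54 was under the background. The log2 fold change of Hist1h1c was -0.45 ± 0.15 (SE), short of the fold threshold though at or under 0.05 on the unadjusted p, with an adjusted p of 0.37 by edgeR's quasi-likelihood test. Its counts hardly differed among cultures of a group, whereas Hist1h1b spread widely, at 38.4, 15.002 and 96.4 in K794Q and 20.99, 20.6 and 106 in WT cells. Hist1h1a behaved likewise, with 14.9, 5.72 and 50.05 against 10.8, 8.50 and 36.0. For both genes culture C was the highest of its group and the groups overlapped. Hist1h1d and Hist1h1e had log2 fold changes of -0.25 ± 0.34 and -0.06 ± 0.31 (SE). The H1 genes had a median log2 fold change of -0.06, with 2 of 5 tested above 0. Hist1h1t, the testis-specific H1, was not tested at 0, 0 and 0 reads in K794Q and 9, 3 and 1 reads in WT cells. When no filter on low counts was set, it was the 1 histone gene past both thresholds, as lower.

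H2A and H2B pair as dimers within the nucleosome, and most of their genes lie head to head in pairs. The median log2 fold change was 0.20 over the 11 tested H2A genes, of which 6 were above 0, and 0.22 over the 14 tested H2B genes, of which 11 were above 0. Hist1h2ak, the H2A gene of the Hist1 cluster with the highest mean count, was at 12.04, 9.18 and 23.5 in K794Q and 10.23, 9.40 and 19.2 in WT cells. Its log2 fold change was 0.20 ± 0.46 (SE). Hist1h2bg, its H2B counterpart by that rule, was at 44.6, 20.9 and 58.2 against 27.8, 22.7 and 69.0, with a log2 fold change of 0.05 ± 0.54 (SE). In both genes culture C of each group lay above its A and B, and the groups overlapped. Among the Hist2 genes, Hist2h2ac was at 17.4, 12.04 and 23.5 against 12.4, 8.40 and 19.9, a log2 fold change of 0.38 ± 0.40 (SE). Hist2h2bb was at 42.5, 22.2 and 75.2 against 23.5, 26.8 and 68.5, with 0.23 ± 0.58 (SE). Hist3h2a was at 24.1, 23.8 and 30.8 against 36.3, 33.6 and 27.2, with -0.30 ± 0.21 (SE). It was higher in WT cultures A and B than in any K794Q culture, and culture C undid the separation.

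H3 and H4 form the tetramer at the centre of the nucleosome. All 12 H3 genes were tested, with a median log2 fold change of 0.16 and 9 above 0. The 4 genes for the H3.1 protein (Hist1h3a, Hist1h3g, Hist1h3h and Hist1h3i) had a median of 0.28, and the 8 for H3.2 had 0.16. Hist1h3e, with the highest mean count of the Hist1 H3 genes, was at 32.8, 19.6 and 47.5 in K794Q and 27.3, 27.4 and 55.4 in WT cells, a log2 fold change of -0.14 ± 0.43 (SE). Hist2h3b was at 36.1, 27.9 and 54.6 against 34.9, 35.9 and 37.5, with 0.13 ± 0.27 (SE). In WT cells Hist2h3b was nearly level across the cultures, and its K794Q cultures lay on both sides of that level. Of the 12 tested H4 genes 7 were above 0, with a median of 0.25. Hist1h4d was at 114, 84.2 and 150 against 114, 91.0 and 143, with a log2 fold change of -0.00091 ± 0.28 (SE). Hist2h4 was at 58.2, 36.1 and 54.2 against 36.8, 30.6 and 42.1, with 0.44 ± 0.24 (SE). Hist4h4 was at 27.1, 22.3 and 55.1 against 34.1, 18.0 and 53.8, with -0.02 ± 0.50 (SE). In all 3 of these genes the groups overlapped.

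Summed by type, H4 genes carried 480, 306 and 624 normalized counts in K794Q and 437, 314 and 511 in WT cells. H1 genes carried 369, 274 and 497 against 398, 346 and 580. H2A genes, at 87.1, 61.9 and 130 against 84.3, 72.3 and 111, were the least counted type. Every H2A member overlaps an annotated gene on the opposite strand. Whether this or shared sequence lowered the H2A counts was not tested. The log2 ratios of the group means were -0.22 for H1, 0.06 for H2A, 0.18 for H2B, 0.18 for H3 and 0.16 for H4, each less than the spread between cultures. Per kilobase of RefSeq transcript, among members with 1 exon, Hist1h4d had the highest level at 289 normalized counts, then Hist1h1c at 214, Hist1h1e at 127, Hist1h4h at 126 and Hist1h4c at 120. The GENCODE transcripts of some are much longer, at 1138 bases against 402 in RefSeq for Hist1h4d and 1560 against 725 for Hist1h1c. Which transcripts the counting used is not given, and the order of these genes depends on the length chosen. The level of a member that shares sequence with its copies is uncertain, since reads may be split between them.

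By cluster, the median log2 fold change was 0.22 over 44 tested Hist1 genes and -0.02 over 8 tested Hist2 genes. Summed counts were 1128, 719 and 1558 in K794Q and 1019, 822 and 1488 in WT cells for Hist1, and 166, 113 and 217 against 130, 126 and 174 for Hist2. There were 6 tested non-histone genes lying between the first and the last Hist1 member, with a median of -0.09. They were Abt1, C230035I16Rik, Hfe, Prss16, Zfp184 and Zfp322a. Of these Prss16 was past both thresholds as higher in K794Q cells, with a log2 fold change of 2.81 ± 0.999 (SE) and an adjusted p of 0.40 by edgeR. Its K794Q cultures were uneven, with a mean of 12.4 ± 14.1 (SD) against 1.76 ± 0.83 in WT cells. K794Q culture C lay under the mean of A and B, with a log2 ratio of -3.16. The Hist3 sum, nearly all Hist3h2a, had a log2 ratio of -0.30.

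The cultures of a group differed more than the groups did, and they did so in one direction for most members. Culture C was the highest of its group in both groups for 45 of 54 genes (83.3%), against 16.5% of all tested genes. In WT cells alone it was highest for 46 of 54, against 45.2%, and in K794Q cells alone for 48 of 54, against 34.2%. In 44 of 54 genes, against 12.6% of all, culture B was in addition the lowest of the K794Q cultures. Culture C lay at least 2-fold above the mean of A and B for 26 of 54 genes in WT cells, against 12.2% of all genes, and for 25 of 54 in K794Q cells, against 6.86%. The median log2 ratio of culture C to the mean of A and B was 0.98 for the histone genes in WT cells and 0.95 in K794Q cells, beside 0.0047 and -0.01 for all genes. The members share the same 6 libraries, so these counts describe the cultures and are not a test. Across all genes, same-lettered cultures of the 2 groups correlated weakly (0.055 to 0.095), so the letters were not taken as pairs.

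**Figure D3:**
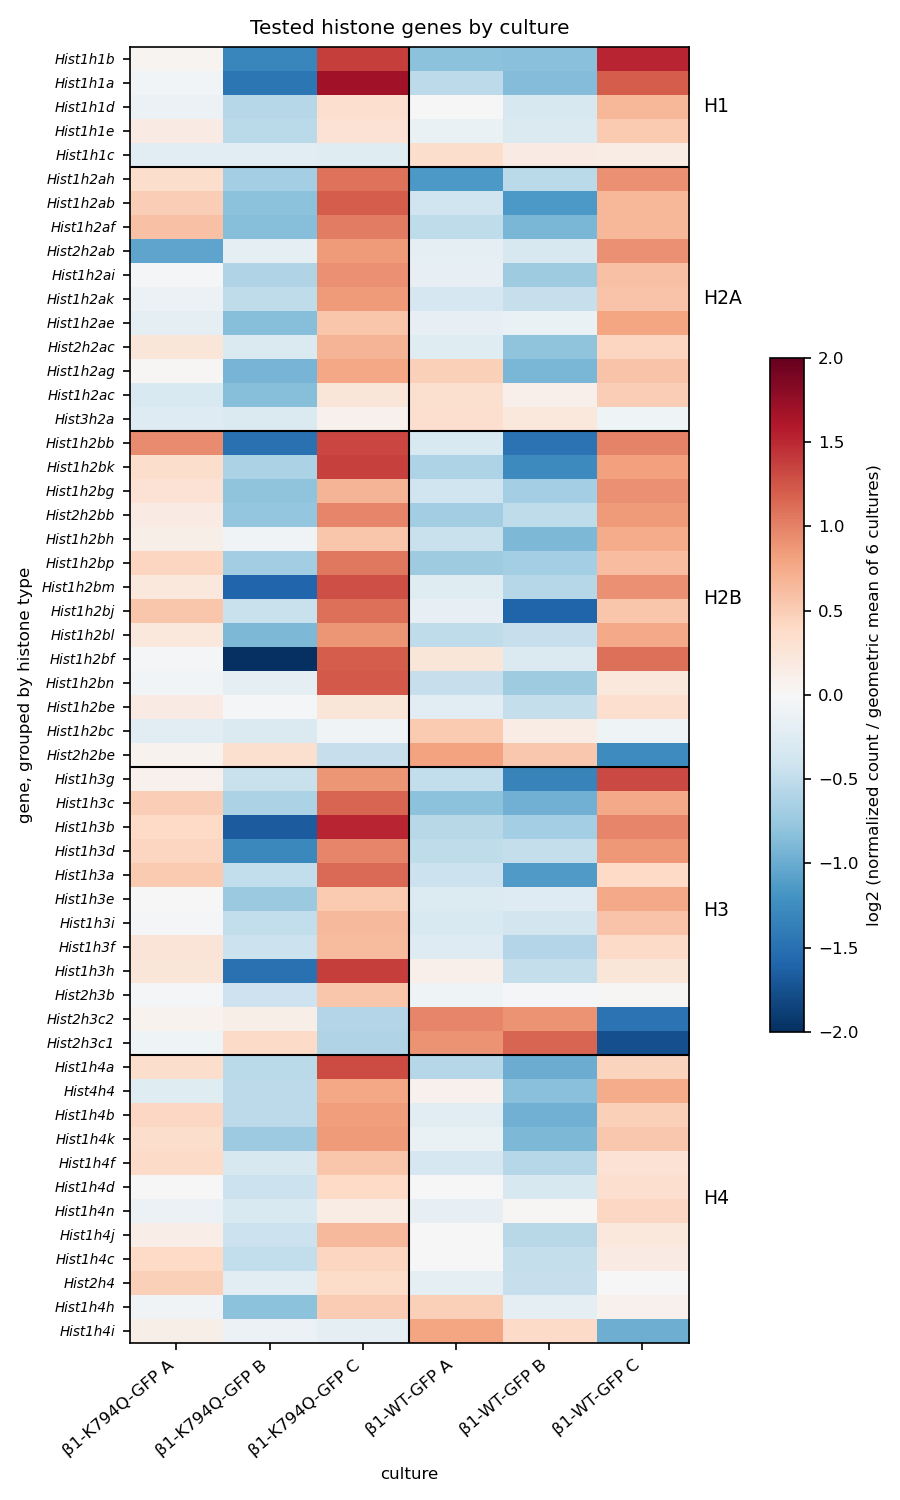
Each tested histone gene (vertical axis, grouped by type and ordered within a type by culture C against A and B in WT cells) in each of the 6 cultures (horizontal axis). Colour is the log2 ratio of the normalized count to the gene's geometric mean over the cultures, red above and blue below. Both C columns are red for most genes, and the K794Q B column is blue for 51 of 54.

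In WT cells 8 genes were not highest in culture C, Hist1h1c, Hist1h2bc, Hist1h4h, Hist1h4i, Hist2h2be, Hist2h3c1, Hist2h3c2 and Hist3h2a. They were singled out after their values were seen and get no test. Hist2h3c1, which encodes H3.2, was at 15.05, 18.0 and 2.37 in WT and 7.61, 10.5 and 5.33 in K794Q cells. Hist1h4i, an H4 gene, was at 40.2, 30.2 and 11.8 against 25.2, 21.3 and 20.2. Culture C was thus the lowest of its group for both genes, in both groups. Together the 8 genes summed to 393, 326 and 285 in WT and 258, 236 and 281 in K794Q cells, and their log2 fold changes, with a median of -0.36, were all below 0. These fold changes rest on the same WT values that picked the genes. The other 46 genes summed to 825, 672 and 1456 against 1085, 642 and 1577.

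**Figure D4:**
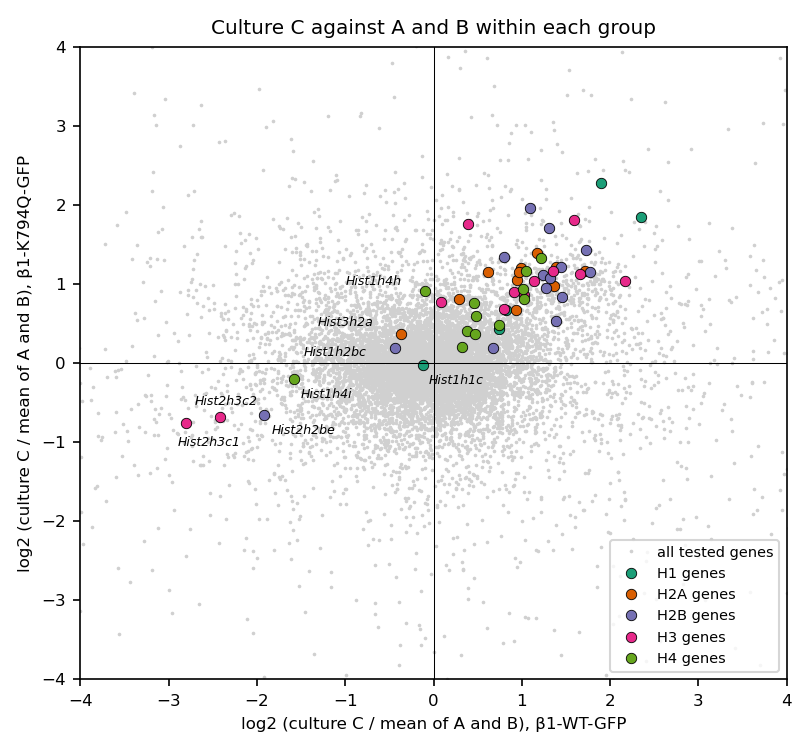
Log2 ratio of culture C to the mean of cultures A and B in WT cells (horizontal axis) and in K794Q cells (vertical axis), for the 54 tested histone genes (coloured by type) and for all tested genes within the axis limits (grey). Most histone genes lie at the upper right, near 1 on both axes, and the 8 named genes were not highest in WT culture C.

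The divergent pair whose shared start region is printed above split in this way. Hist2h2ac had a log2 ratio of WT culture C to A and B of 0.94, and Hist2h2be one of -1.92. Hist2h2be, an H2B gene, was at 2.89, 2.40 and 0.696 in WT and 1.73, 2.07 and 1.204 in K794Q cells, with a log2 fold change of -0.25 ± 0.60 (SE) beside 0.38 for Hist2h2ac. The annotated transcript of Hist2h2be is 2620 bases long and holds no stem-loop of the pattern searched, while that of Hist2h2ac ends 57 bases after its own. The pair Hist1h2ac and Hist1h2bc, 251 bases apart, had log2 fold changes of -0.55 and -0.41, though WT culture C split them too, at 0.28 and -0.44. The pair Hist1h2ah and Hist1h2bk, 302 bases apart, had log2 fold changes of 0.40 and 0.67. Other pairs differed in sign, Hist1h2ag and Hist1h2bj with -0.07 and 0.68, and Hist1h2ae and Hist1h2bg with -0.28 and 0.05. Of the 14 head-to-head pairs, 8 had both genes tested.

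Members were also set apart by their annotated 3′ end. In 17 tested genes the annotated transcript ended within 100 bases after the stem-loop, and their median log2 fold change was 0.45, with 13 above 0. In 21 tested genes it ran on for more than 100 bases, as in Hist1h1c with 840, and their median was -0.02, with 9 above 0. In the 16 tested genes with no stem-loop in the annotated transcript the median was 0.21, with 13 above 0. Of the 8 genes that were not highest in WT culture C, 5 ran on, 2 had no stem-loop and 1 ended at it. The summed counts of the genes ending at the stem-loop were 255, 129 and 386 in K794Q and 192, 132 and 296 in WT cells, and those of the genes running on were 838, 608 and 1017 against 836, 697 and 1047. Both pairs of sums overlapped. The counts do not tell stem-loop transcripts from longer ones of the same gene. The 3′ end groups follow the GENCODE models, from which RefSeq lengths differ. Hist1h2bl, without a stem-loop in GENCODE, has 381 bases there and 473 in RefSeq, and Hist1h1c has 1560 and 725. The groups therefore describe the annotation and not measured 3′ ends.

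Copies of near-identical sequence limit what the counts of single members hold. A 50-base stretch was called shared where it also occurred in a transcript of another gene. Of the 54 tested genes, 21 shared over 50% of their stretches and 4 shared none. Members at 0 counts in every culture numbered 6, Hist1h2ao, Hist1h2ap, Hist1h2bq, Hist1h2br, Hist2h2aa1 and Hist2h2aa2, and these shared between 88.7% and 100% of their stretches. How the counting treated reads that fit several genes is not given in the sources used here, so a 0 there does not show that the gene was silent. In addition 24 members overlap another annotated gene, 21 of them one on the opposite strand, and whether strand was used in counting is not given either. Every H2A member is among those 21. The other 8 untested genes, among them Hist1h2ad and Hist1h2an, had between 1 and 49 reads over all cultures.

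Genes that act with the histone genes were counted from lists. S phase and DNA replication genes gave 6 of 40 called as higher and 0 as lower, with 39 of 40 log2 fold changes above 0 and a median of 0.79. Over all tested genes 3.48% were called higher, 1.71% lower, and 48.4% were above 0. Cdk2, the kinase partner of cyclin E, was at 237, 61.8 and 272 in K794Q and 58.0, 55.8 and 47.1 in WT cells, a log2 fold change of 1.83 ± 0.53 (SE). Its groups did not overlap, as in 8.45% of all genes with K794Q higher, and its adjusted p was 0.29 by edgeR. Prim1, the primase subunit, was at 207, 17.1 and 180 against 11.7, 11.7 and 25.8, with 3.03 ± 0.91 (SE). Tyms, Ccne2 and E2f1, for thymidylate synthase, cyclin E2 and the S phase transcription factor, had log2 fold changes of 1.02, 1.98 and 1.11, and the other called gene was Ccne1 with 1.97. Rrm1, the ribonucleotide reductase subunit, was at 261, 130 and 366 against 97.6, 91.1 and 264, with 0.74 ± 0.55 (SE), and Mcm6, of the replicative helicase, had 0.70 ± 0.74 (SE). Neither was called, and in both WT culture C reached the K794Q range. The count of 6 hung on single cultures, being 2 without K794Q A or C or WT B, 1 without WT A, 18 without K794Q B and 20 without WT C.

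Side by side, the histone and the S phase sums ordered the cultures in part alike. The S phase genes summed to 3208, 1153 and 3808 in K794Q and 1048, 925 and 2437 in WT cells. Culture C was highest in each group for both sums, and K794Q culture B was near WT cultures A and B. Counts of histone genes per count of S phase genes were 0.419, 0.763 and 0.489 in K794Q and 1.16, 1.08 and 0.715 in WT cells. These ratios overlapped between the groups by K794Q culture B and WT culture C.

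**Figure D5:**
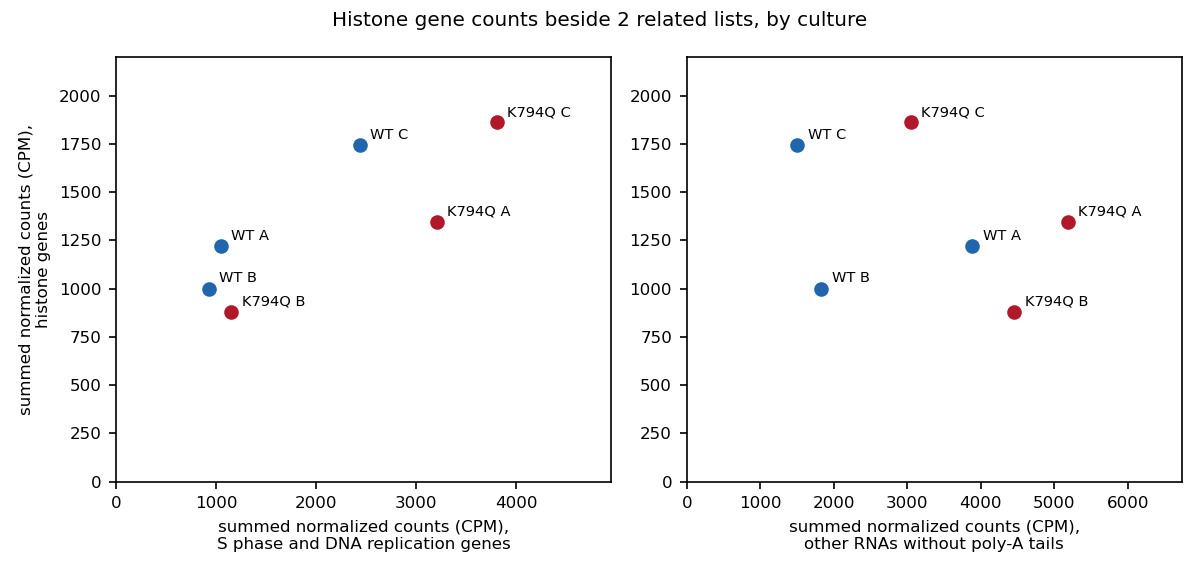
Summed normalized counts of histone genes (vertical axes, CPM) against those of the S phase and DNA replication genes (left) and of other RNAs without poly-A tails (right), one point per culture, WT blue and K794Q red. At left K794Q cultures A and C have the highest S phase sums (3208 and 3808), and at right the sums of the other RNAs follow another order.

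Other RNAs without poly-A tails served as a check on the depletion libraries. Summed, they were at 5183, 4454 and 3047 in K794Q and 3883, 1831 and 1507 in WT cells, mostly from Rpph1, the RNA of RNase P, and Rmrp, the RNA of RNase MRP. This sum was lowest in culture C of each group, and Rpph1 set that order. Without Rpph1, left out after its values were seen, the sums were 1852, 1203 and 1416 against 1275, 685 and 943. These were lowest in culture B of each group as the histone sum was, but highest in culture A and not in C. Most of this remainder was Rmrp, at 1361, 734 and 1071 against 854, 385 and 731. Of 45 tested such RNAs, 2 were called higher (Rprl1 and Snord15a) and 1 lower (Snord47), with log2 fold changes of 1.81, 1.08 and -1.24, a share near the 5.19% called over all genes. This count was 1 without K794Q A, 5 without WT A and 0 without WT B. Rpph1 and Rmrp had log2 fold changes of 0.93 ± 0.62 and 0.69 ± 0.39 (SE) and were not called. The part of tail-less RNA recovery in the histone counts was not tested.

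Of the 21 tested genes for transcription and 3′ end processing of histone mRNA, 0 were called in either direction (edgeR), against 5.19% of all genes. The median log2 fold change was 0.07. On unadjusted p alone 1 was under 0.05, against 10.2% of all genes at or under 0.05. That 1 gene was Slbp, which encodes the stem-loop binding protein, at 48.1, 28.0 and 55.7 in K794Q and 22.7, 22.3 and 24.8 in WT cells. It was the 1 gene of the 21 whose groups did not overlap, against 8.45% of all genes with K794Q higher. Its log2 fold change of 0.92 ± 0.28 (SE) missed the fold threshold, with an adjusted p of 0.31 by edgeR. Without K794Q culture B it was 1.16 and past both thresholds. Npat, the coactivator of histone gene transcription, was at 116, 75.1 and 134 against 105, 115 and 106, with -0.0093 ± 0.24 (SE). Upf1, a helicase of histone mRNA decay, and Zcchc6, a uridylating enzyme of that decay, had -0.0047 ± 0.16 and 0.13 ± 0.22 (SE).

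Histone chaperones, which escort histones to DNA, gave 2 of 22 called as higher and 0 as lower, with a median log2 fold change of 0.30, where 3.48% of all genes were called higher. Nap1l1, a chaperone of H2A and H2B, was at 381, 187 and 442 in K794Q and 111, 100 and 231 in WT cells, with 1.19 ± 0.46 (SE). Tonsl, which binds newly made histones at replication forks, was at 24.6, 8.39 and 29.2 against 8.49, 6.90 and 11.5, with 1.21 ± 0.49 (SE). The groups overlapped for both genes, and the adjusted p-values by edgeR were 0.44 and 0.47. The count was 0 without any one of K794Q A or C or WT A or B, 5 without K794Q B and 4 without WT C. Atrx, a remodeller that acts with the H3.3 chaperone Daxx, had 0.33 ± 0.21 (SE).

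Replacement histones gave 0 of 11 called in either direction (edgeR), against 5.19% of all genes, with a median log2 fold change of -0.07. On unadjusted p alone 1 was under 0.05, against 10.2% of all genes at or under 0.05. The number called was 3 without K794Q culture B and 1 without WT culture C. These genes summed to 853, 901 and 910 in K794Q and 1165, 1164 and 1168 in WT cells. Unlike the replication-dependent sum, this sum was nearly level within a group and did not overlap between the groups. It does not stand for the single genes. Of the 11 genes, 3 did not overlap with K794Q lower, against 8.12% of all genes. H3f3b, one of the genes for H3.3, was at 339, 286 and 361 against 387, 399 and 437, with -0.31 ± 0.19 (SE). H3f3a, the other gene for H3.3, was the one with p under 0.05 and was named after its values were seen, at 103, 88.8 and 108 against 153, 173 and 161. It had -0.70 ± 0.16 (SE) and an adjusted p of 0.18 by edgeR. H1f0, the linker histone of resting cells, was at 130, 285 and 82.2 against 369, 360 and 212, with -0.92 ± 0.49 (SE). Within each group H1f0 was lowest in culture C, where Hist1h1a, Hist1h1b and H3f3b were highest. In K794Q culture B H1f0 was highest and H3f3b lowest. The level sum of the replacement histones thus hides opposite orders in the 2 genes with the highest mean count. Counts of replication-dependent per count of replacement histone genes were 1.58, 0.976 and 2.04 against 1.05, 0.859 and 1.49.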

How the data were processed

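Total RNA of 6 cultures, 3 per group by the titles in the labels, was sequenced after ribosomal RNA depletion. The table the authors deposited gives raw read counts for each mouse gene symbol. The submitters' processing notes name bcl2fastq 2.20.0, STAR 2.7.4a, HTSeq 0.9.1, edgeR 3.38.4 and build mm10, and the annotation and counting settings are not given in the sources used here. The study describes 2 sequencing runs of the samples, and which run the counts hold is not given by the labels.

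Differential expression used edgeR 4.0.16 under R 4.3.3 (filterByExpr, TMM, two-sided quasi-likelihood F-test, all 6 cultures, group as the only term). Called genes had a fold of 2 or more together with an unadjusted p of 0.05 or less, with Benjamini-Hochberg adjusted p over all 11608 tested genes beside it. The fit was also run on simulated counts with less spread than these data (dispersion 0.05 against 0.186). That run therefore does not measure error rates here. DESeq2 1.42.0, other filters and scalings, a block on the culture letter and each culture left out were alternatives. A count of 0 allows up to 3 counts, or 0.196 to 0.313 normalized counts per culture, which covers counting error only.

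Members and lists were chosen with earlier results of these data known. Named were, in each cluster and type, the tested member with the highest mean count, every gene past both thresholds (in the S phase list the 5 with the highest mean), the 2 with the highest mean count in each list, Slbp and Npat. Further genes are those described as chosen on their values or to show a pattern. The list of mitochondrially encoded genes matched 0 symbols. All 68 symbols matched GENCODE M21 and RefSeq (GRCm38.p6), whose sequences are shown.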

Additional observations from a re-analysis of the deposited data

How the results depend on the processing

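The median log2 fold change of the histone genes moved by less than the spread between cultures under every alternative. So did the sums by type and for all members, which had no value under another test or the block. That spread comes from the same cultures, so leaving out any of them could hardly move a value past it. For those settings the comparison does not show stability. Without K794Q culture C and without WT culture C, the median of 0.20 became -0.28 and 0.65. The log2 ratio of the sums for all members, 0.04, became -0.25 and 0.31. No filter on low counts gave 1 histone gene past both thresholds (lower), 916 of all genes, 1 replacement histone and 5 other RNAs without poly-A tails, and at least 10 counts in every culture gave 1 of the latter. Replacement histones also gave 1 with library totals only, with DESeq2 and with the likelihood ratio test, and chaperones 1 with library totals only. Hist1h4d turned sign to 0.0046 with the stricter filter, 0.00051 with RLE scaling, 0.0036 with library totals and 0.00044 with DESeq2, and Hist4h4 to 0.0068 with library totals. The culture letter as a replicate block gave 0 histone genes, 571 of all genes and 2 replacement histones, with Hist4h4 at 0.0019. On unadjusted p alone the block put 3 histone genes at or under 0.05 (edgeR's quasi-likelihood test), against 1 without it. The correlations of same-lettered cultures were 0.095, 0.055 and 0.095. All were positive but short of the limit set in advance, so the letters were not taken as pairs. K794Q A and WT B also reached 0.095, so not every culture correlated best with its own letter.

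Leaving out 1 culture gave 0 to 1 histone genes higher and 0 to 1 lower, 501 (without WT B) to 992 (without WT C) of all genes, 0 to 3 replacement histones, 0 to 1 processing genes, 0 to 5 chaperones, 1 to 20 S phase genes and 0 to 5 other RNAs. Log2 fold changes that turned sign ran from -0.29 to 0.62 for Hist1h2ak, -0.28 to 0.72 for Hist1h2bg, -0.48 to 0.30 for Hist1h3e, -0.23 to 0.19 for Hist1h4d, -0.29 to 0.90 for Hist2h2bb, -0.17 to 0.33 for Hist2h3b, -0.52 to 0.43 for Hist4h4, -0.079 to 0.076 for Upf1 and -0.19 to 0.20 for Npat. Leaving out both cultures C, an alternative chosen after seeing the data, gave 0 histone genes, 1046 of all genes, -0.54 for the Hist3 sum, -0.14 for Hist2h3b and 0.023 for Upf1. Apart from what each setting leaves out, the cause was not tested. The 14 untested members had between 0 and 49 reads over all cultures, and whether depth or the counting of shared reads set this was not tested.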
